A study of Mus musculus with 118 samples.

Results

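The 10 genes described here encode the enzymes that turn neuropeptide precursors into active peptides and the granins that fill the dense-core vesicle. They are the prohormone convertase genes *Pcsk1*, *Pcsk2* and *Pcsk5*, the trimming and amidating enzyme genes *Cpe* and *Pam*, the convertase chaperone gene *Scg5*, and the granin genes *Scg2*, *Scg3*, *Chga* and *Chgb*. They were chosen by the role of their proteins, and all 10 were found among the 23998 gene symbols of the count table. Their levels were read in single SOM+ cells, of which all but 9 were kept, and their correlation with *Sst*, the somatostatin gene, was described across the same cells.

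Neuropeptides are made as long precursors that are sorted into dense-core vesicles at the trans-Golgi network. There the prohormone convertases cut them at basic residues, carboxypeptidase E removes the basic residues left at the end, and peptidylglycine alpha-amidating monooxygenase amidates the ends of those peptides that need it. Granins condense with the peptides in the vesicle core, and somatostatin itself is cut out of a larger precursor by this route.

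RNA was measured by Patch-seq: each cell was first recorded electrically, and its cytoplasm was then aspirated through the same pipette to make cDNA. All cells came from adult SOM-Cre/Ai9 mice, in which Cre made under control of the somatostatin gene switches on the red marker tdTomato, so that a cell that expressed *Sst* at any earlier time is labelled too. Cells lay in layer 4 (L4) or layer 5 (L5) of the primary visual cortex (V1) or the primary somatosensory cortex (S1), no group had a treatment, and all groups share the same driver and reporter alleles. Animals are not given in the labels. Each combination of area and layer was therefore treated as a single sample, no test was run on cells, and SDs over cells describe cells only. Cells were kept with at least 1500 genes above 0, *Gad1* and *Gad2* counts that together reached those of *Slc17a7*, and *Sst* above 0, which left 42 of 44 cells from L4 and 17 of 19 from L5 of V1, and 34 of 39 from L4 and 16 of 16 from L5 of S1.

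Total counts per kept cell ranged from 97904 to 3295232, with a median of 1111833, and 6383 ± 1632 genes were detected per cell (mean ± SD over all kept cells). Levels are given as counts scaled to a total of 1000000 per cell (CPM) or as log2(CPM + 1). Besides *Sst*, the GABA synthesis gene *Gad1* was read in 100% of kept cells and *Gad2* in 98.2%, but these genes entered the rule for keeping cells. The interneuron transcription factor genes *Sox6* and *Lhx6*, which did not enter it, were read in 87.2% and 80.7%. RNA of other cells was also read. The myelin gene *Mbp* was read in 78.0% of cells with a median of 144.4 CPM, while the median of *Mog* and *Mag* and of every astrocyte, microglia and excitatory neuron marker tested was 0 CPM. Across cells, r between the 10 genes and the summed astrocyte, microglia, oligodendrocyte or excitatory neuron markers lay between −0.29, for *Chga* with the astrocyte markers, and 0.18, for *Pam* with the excitatory neuron markers.

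SOM+ cells carried most of the pathway at high levels but the convertases only in a share of cells. *Cpe* and *Pam* were each read in 99.1% of the kept cells, that is in all but 1 cell. *Scg5* was at 0 in 2 cells, *Chga* in 4, *Scg2* and *Chgb* in 5 each, and *Scg3* was read in 93 cells. *Pcsk2* was read in 65 cells, *Pcsk1* in 46 and *Pcsk5* in 30. Thus 6 of the 10 genes were read in at least 90% of cells, beside 9.55% of the 9993 genes with at least 32 counts in at least 10 kept cells. All 10 genes passed that filter over all cells. A cell held a median of 8 of the 10 genes, the poorest cell 4, and 12 cells held all 10. Together the genes took a median of 0.409% of a cell's counts, from 0.0907% to 1.10%.

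**Figure D1:**
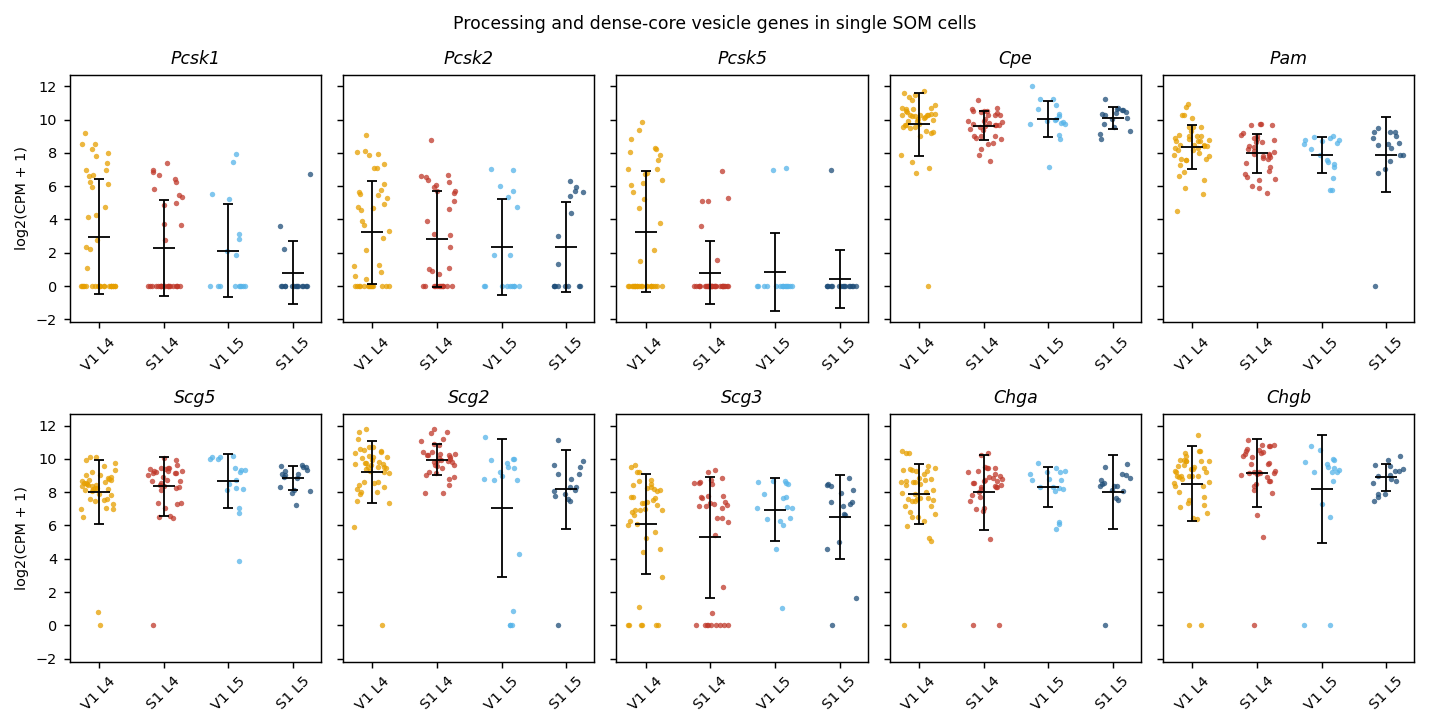
Level of each gene in log2(CPM + 1) (y axis) in single SOM+ cells of the 4 groups (x axis); each point is 1 cell, and black bars give the mean ± SD over cells. *Cpe*, *Pam*, *Scg5*, *Chga*, *Chgb* and *Scg2* form 1 high band with few cells at 0, whereas *Pcsk1*, *Pcsk2* and *Pcsk5* split into cells at 0 and cells with reads.

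Among the enzymes that act after the cut, *Cpe* was the most abundant. Its level ran from 0 to 4196 CPM with a median of 1035 CPM, and the group medians were 1151 CPM (L4) and 1017 CPM (L5) in V1 and 836 CPM (L4) and 1245 CPM (L5) in S1. *Cpe* lies on chromosome 8 (chr8:64592542-64693054, minus strand, GRCm38). *Pam* (chr1:97795114-98095646, minus strand), whose enzyme makes the C-terminal amide, ran from 0 to 1947 CPM with a median of 330 CPM. *Pam* was also the steadiest for its level. Its SD over cells was 1.42 on the log2 scale, beside a median SD of 2.10 among 187 other genes within 0.5 of its mean level. The only cell without *Pam* was an S1 L5 cell with 128379 counts, in which a count of 0 allows up to 23.4 CPM. *Scg5* (chr2:113776362-113829121, minus strand), which encodes the chaperone 7B2 of the convertase PC2, had a median of 409 CPM and a highest value of 1158 CPM.

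The granins followed the same pattern with more cells at 0. *Scg2* (secretogranin II, chr1:79434669-79440120, minus strand) had a median of 743 CPM and reached 3515 CPM. *Chgb* (chromogranin B, chr2:132781278-132795079, plus strand) had a median of 591 CPM and *Chga* (chromogranin A, chr12:102554969-102565028, plus strand) of 350 CPM. Both reached far above these medians, *Chgb* to 2832 CPM and *Chga* to 1401 CPM. *Scg3* (chr9:75643189-75684056, minus strand), which encodes a granin that anchors others to the vesicle membrane, had a median of 144.7 CPM and was at 0 in 16 cells. In these 16 cells a count of 0 allows a median of 3.52 CPM, far under the median of 166.9 CPM of the cells with *Scg3* reads. *Scg2* varied most for its level, with an SD over cells of 2.45 beside a median of 1.67 among 91 genes of like mean. The cells at 0 were mostly different ones for each gene. Of the 7 genes read in most cells, all 7 were read in 81 cells, 1 was missing in 24 cells, and 2 or more were missing in 4 cells.

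Between genes, levels can be compared only per length, so the deposited RPKM values (reads per kilobase of transcript, scaled to library depth) were used for their order. The median RPKM was 499 for *Cpe*, 331 for *Scg5*, 314 for *Scg2*, 224 for *Chgb*, 185 for *Chga*, 79.0 for *Pam*, 67.1 for *Scg3* and 0.597 for *Pcsk2*, and 0 for *Pcsk1* and *Pcsk5*. *Sst* itself stood at 2097 RPKM. In this order 3 steps were larger than their SD over the 9 recording days, namely *Cpe* over *Scg5*, *Chga* over *Pam* and *Scg3* over *Pcsk2*. The other neighbours, *Scg5*, *Scg2*, *Chgb* and *Chga* among them, did not differ beyond that spread. The order was the same without any single recording day, and the mean RPKM over cells put *Pcsk1* before *Pcsk2*.

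The convertases were read in fewer cells than the other genes. *Pcsk1* (chr13:75089826-75134861, plus strand) and *Pcsk2* (chr2:143546156-143816285, plus strand) encode PC1/3 and PC2, the main convertases of neuroendocrine cells, and *Pcsk5* (chr19:17432319-17837632, minus strand) encodes PC5/6. Exons of *Pcsk2* share 359 bases with the antisense genes *Pcsk2os1* and *Pcsk2os2*, and those of *Pam* share 188 bases with *B230216N24Rik*, so reads there cannot be told apart without strand. Cells that had *Pcsk5* reads had many, with a median of 107.7 CPM and a highest value of 917 CPM in 30 cells. The median over cells with reads was 58.7 CPM for *Pcsk1* and 42.05 CPM for *Pcsk2*. In cells at 0, a count of 0 allows a median of only 2.82 CPM of *Pcsk5*, 2.996 of *Pcsk1* and 3.35 of *Pcsk2*, and at most 30.6 CPM in the shallowest cell. These floors cover counting error only, and losses in cDNA synthesis come on top. Cells without *Pcsk2* reads were shallower, with a median total of 896426 counts beside 1290710 in cells with reads. With 250000 reads drawn from each cell, leaving out 3 shallower ones, *Pcsk2* was read in 55 cells, *Pcsk1* in 45 and *Pcsk5* in 28.

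Both *Pcsk1* and *Pcsk2* were read in 29 cells, *Pcsk1* alone in 17, *Pcsk2* alone in 36 and neither in 27. The share with neither was 6 of 42 (L4) and 5 of 17 cells (L5) in V1, and 9 of 34 (L4) and 7 of 16 cells (L5) in S1. Across cells the levels of *Pcsk1* and *Pcsk2* had an r of 0.04. Of the other proprotein convertases, the broadly expressed *Pcsk7* was read in 57.8% of cells and *Furin* in 44.04%, *Mbtps1*, which cleaves membrane-bound transcription factors, in 65.1%, *Pcsk4* in 14.7% and *Pcsk6* in 1.83%. By contrast *Pcsk1n*, which encodes the PC1/3 inhibitor proSAAS, was read in 98.2% of cells.

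Whether the pathway differs between areas was asked with S1 minus V1 differences of the mean log2(CPM + 1). A gene was called where the difference was at least 1, exceeded its SD over recording days, and kept its sign on all days that had 2 or more cells from both groups. The difference is taken over all cells compared. The SD is that of the differences within these days, whose mean can lie elsewhere, so it is no error of the difference over all cells. In L4, 1 of the 10 genes was called, beside 1.99% of 9201 genes. This was *Pcsk5*, which was lower in S1. With reads in 6 S1 L4 cells, it passed the filter of at least 32 counts in at least 10 cells only through V1 L4, where it was higher. In V1 L4 *Pcsk5* ran from 0 to 917 CPM with a median of 0.916 CPM and was read in 21 of 42 cells (50%, 95% Clopper-Pearson interval 34.2% to 65.8%). In S1 L4 it ran from 0 to 121.2 CPM with a median of 0 and was read in 6 of 34 cells (17.6%, 6.76% to 34.5%). The ranges overlap, and the highest S1 cell lies far below the highest V1 cell. Mean levels of 3.27 ± 3.64 (V1) and 0.81 ± 1.91 (S1, SD over cells) gave a difference of −2.46. Within days the difference was negative in 5 of 5 days, from −5.29 to −1.60, with a mean of −3.23 and an SD of 1.40. Pooled over cells, *Pcsk5* took 88.8 CPM in V1 L4 (95% Poisson interval 86.3 to 91.4) and 8.02 CPM in S1 L4 (7.24 to 8.86). These intervals treat cells or reads as independent, leave out animals and days, and are no test between the areas. Between medians of cells the difference was −0.75 and no call was made. The oligodendrocyte markers also differed between these groups, from 0 to 3717 CPM with a median of 70.0 in V1 L4 and from 0 to 9510 CPM with a median of 628 in S1 L4. Their r with *Pcsk5* across cells was −0.04, and their part in the difference was not tested.

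The other 9 genes were not called in L4. Their differences ran from −0.82 for *Scg3*, with an SD of 2.69 over days, to 0.73 for *Scg2*, with an SD of 1.06, and the difference of *Cpe* was −0.08 with an SD of 0.76. The median difference of the 10 genes was −0.24, beside 0.01 over all genes tested. None of the other genes of the pathway were called either, which holds for 8 further processing enzymes and cofactors, 9 further dense-core vesicle genes, 4 peptide precursors and 11 genes of small synaptic vesicle release past the filter.

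In L5, 8 of the 10 genes passed the filter and 0 were called, beside 10.8% of 6402 genes. *Pcsk1* and *Pcsk5* did not pass. *Pcsk1* was read in 8 of 17 V1 cells, up to 242 CPM, and in 3 of 16 S1 cells, up to 107.5 CPM. Its difference was −1.34 with an SD of 1.32 over days and negative in 4 of 4 days, so it met the rule without the filter on low counts. *Pcsk5* was read in 2 V1 cells, at 124.1 and 133.8 CPM, and in 1 S1 cell, at 122.1 CPM. The largest difference among the genes that passed was 1.13 for *Scg2*, with an SD of 2.22. Its sign turned between medians of cells, to −0.69. The median difference was 0.02 over the 10 genes and 0.24 over all genes tested. Of the other dense-core vesicle genes, *Cadps*, which primes vesicles for release, was called higher in S1, by 1.97 with an SD of 0.88.

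**Figure D2:**
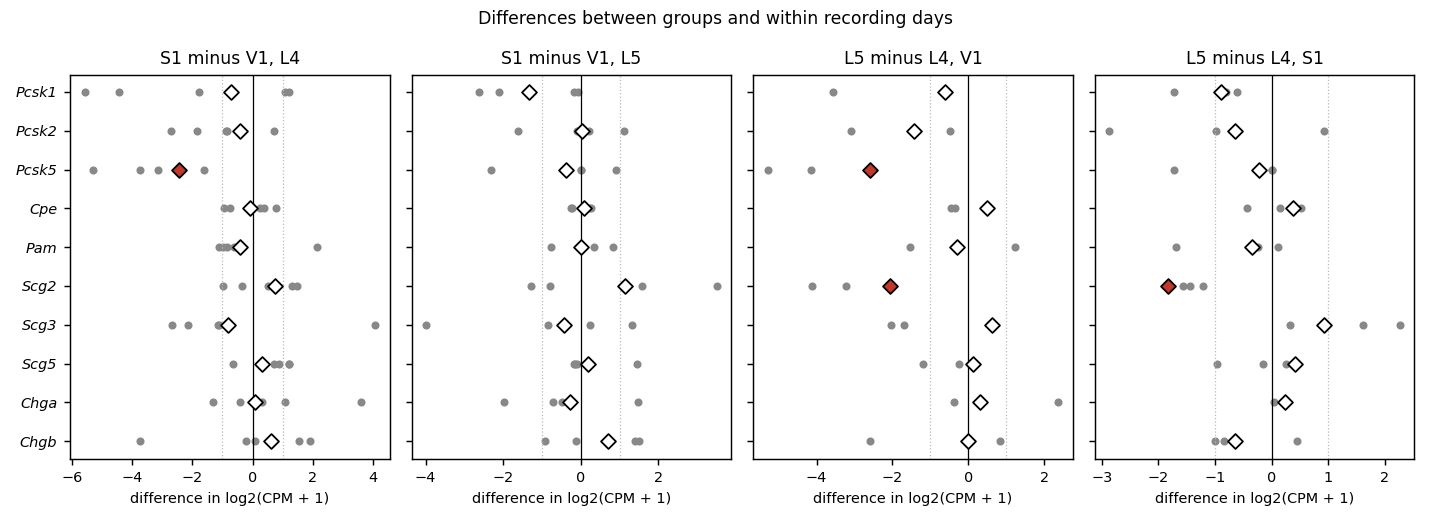
Difference in mean log2(CPM + 1) (x axis) of each gene (y axis) in the 4 comparisons. Grey points are the single days that had 2 or more cells from both groups, diamonds the difference over all cells compared, and filled diamonds the genes called, *Pcsk5* in L4 between areas (−2.46) and in V1 between layers (−2.58), and *Scg2* between layers (−2.07 in V1 and −1.83 in S1); dotted lines mark −1 and 1.

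Layers were compared in the first recording series only, since all L5 cells are from it, as L5 minus L4. The layer comparison in V1 used the same V1 L4 cells of that series as the area comparison in L4. *Scg2* was called lower in L5 in both areas. It was the only 1 of 8 genes past the filter called in S1, and with *Pcsk5* made up 2 of 9 in V1. Over all genes tested, 11.4% were called in S1 and 13.2% in V1, so 1 of 8 is near that share. In S1, *Scg2* ran from 452 to 3515 CPM with a median of 989 CPM in 16 L4 cells and from 0 to 2265 CPM with a median of 314 CPM in 16 L5 cells. Of the L5 cells, 10 lay below the lowest L4 cell. The mean was 9.99 ± 0.80 in L4 and 8.16 ± 2.39 in L5, a difference over all cells of −1.83. Within days the difference was negative in 3 of 3 days, at −1.57, −1.44 and −1.21, with a mean of −1.40 and an SD of 0.18. Each day was thus smaller in size than the difference over all cells. That difference was called under every alternative tried, from −2.10 to −1.27. The last was without the 4 cells that lacked 2 or more of the 7 genes read in most cells.

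In V1, *Scg2* ran from 0 to 3495 CPM with a median of 780 CPM in 21 L4 cells and from 0 to 2546 CPM with a median of 506 CPM in 17 L5 cells. The 2 layers overlap here over most of their range. The difference of the means over all cells was −2.07. In the 2 days with 2 or more cells of both layers, which had 2 and 3 L4 cells, it was −4.11 and −3.23. The mean of these days was −3.67 and their SD 0.62. Much of the difference over all cells came from few L5 cells, since 3 had no *Scg2* read and 1 had 0.790 CPM. With at least 4000 detected genes per cell the difference was −0.96, between medians of cells it was −0.62, and at 250000 reads per cell it was −1.81 with an SD of 1.92, and none of these met the rule.

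*Pcsk5* was also called lower in L5 of V1, where 2 of 17 L5 cells and 10 of 21 L4 cells had reads. Here too it passed the filter only through the V1 L4 cells, where it was higher. The difference over all cells was −2.58. In the 2 days it was −4.14 and −5.29, with a mean of −4.71 and an SD of 0.81. Without recording day 2, which held V1 L4 but no L5 cells, *Pcsk5* no longer passed the filter and the difference was −2.22. At 250000 reads per cell, where it was −2.42 with an SD of 0.85, and between medians of cells *Pcsk5* was not called either. Both medians over cells were 0. In S1 *Pcsk5* was read in 2 of 16 L4 and 1 of 16 L5 cells, and the difference was −0.21. In all, 2 of 9 genes past the filter were called in V1, beside 13.2% of 6696 genes, and 1 of 8 in S1, beside 11.4% of 6492 genes. The median difference of the genes past the filter was −0.00083 in V1 and −0.06 in S1, beside 0.15 and 0.27 over all genes tested, and over all 10 genes it was −0.15 and −0.28. The shift of all genes exceeded 0.1 between layers and in L5 between areas. Summed microglia markers had a median of 83.0 CPM in all 42 V1 L4 cells and 10.9 CPM in V1 L5, with maxima of 1345 and 2764 CPM, and in S1 the medians were 129.03 CPM in all 34 L4 cells and 15.3 CPM in L5. Summed oligodendrocyte markers had a median of 628 CPM in S1 L4 and 312 CPM in S1 L5. The r of *Scg2* across cells was −0.18 with the microglia and −0.05 with the oligodendrocyte markers, and the part of these cells in the layer results was not tested.

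The granin genes besides *Scg2*, and *Cpe*, *Pam* and *Scg5*, were not called between layers. *Chgb* differed by −0.00083 in V1 and −0.65 in S1, with SDs of 2.43 and 0.79 over days. *Scg3* was read in every V1 L5 cell and in 15 of 16 S1 L5 cells, and its difference was 0.63 in V1 and 0.92 in S1, where the SD was 0.99. In V1 both days with 2 or more cells of each layer ran the other way, at −2.05 and −1.71. In S1 *Scg3* was called higher in L5 without recording day 3 (1.32) or day 6 (1.86).

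The counts in the other lists stand beside 13.2% of all genes called in V1 and 11.4% in S1, and 1 call among 7 or 8 genes is near those shares. *Pdyn*, the dynorphin precursor gene, was called lower in L5 in V1 (−3.88, SD 1.18) and in S1 (−2.73, SD 1.60), and was the only 1 of 3 precursors past the filter called in either area. Among dense-core vesicle genes, 1 of 8 was called in each area, *Syt4* in V1 (−1.39) and *Vgf* in S1 (−1.01, SD 0.19). *Syt4* encodes a vesicle synaptotagmin and *Vgf* a granin-like peptide precursor. Of the other processing enzymes, *Qpctl*, which forms pyroglutamate ends, was called higher (1.45) and the endothelin-converting enzyme gene *Ece1* lower (−1.28) among 8 in V1. *Cyb561*, whose cytochrome supplies electrons for amidation by PAM, was called higher among 7 in S1 (2.90, SD 2.22). Of 11 small synaptic vesicle genes, none were called in S1.

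Whether the machinery follows the level of the peptide gene it serves was described by the correlation with *Sst* across all kept cells, 42 of V1 and 34 of S1 in L4 and 17 and 16 in L5. None of the 10 genes reached an r of 0.3, which 0.41% of 9992 genes did. At such a small share, 0 of 10 does not set these genes apart. The highest r were 0.24 for *Cpe*, 0.22 for *Scg2*, 0.21 for *Chga* and 0.18 for *Scg5*. These lay above 0.154, the upper end of the 5% to 95% range of all genes past the filter. The rest of the 10 genes lay below it, and the lowest was −0.05 for *Pcsk2*. The median r of the 10 genes was 0.13, beside −0.04 over all genes past the filter and 0.06 over 11 small synaptic vesicle genes. These points share library depth and composition, and r with *Sst* was −0.06 for the log10 total and −0.16 for the number of detected genes. With both taken out, the median r was 0.17 for the 10 genes and 0.004 over all genes, and centred within group and recording day it was 0.08 and −0.04. By rank, *Scg5* reached 0.34. Centred within group and recording day, *Cpe* reached 0.31, and in cells with at least 4000 genes *Scg2* reached 0.33. With the 4 cells without an *Sst* read kept, r was lower, at 0.02 for *Scg2*, 0.10 for *Cpe*, 0.09 for *Scg5* and 0.00061 for *Chgb*. The paper set aside fast-spiking cells that mapped to a *Pvalb* type as likely basket cells, and found no somatostatin reads in them. These may be among the 4, but firing and type were not used here, so this was not checked.

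Within groups the r with *Sst* was uneven. In V1 L4 it was 0.46 for *Scg2*, 0.43 for *Cpe* and 0.36 for *Chgb*, but 0.27, 0.21 and 0.17 without the 1 V1 L4 cell in which all of these 3 genes were at 0. In S1 L4 the same genes had 0.10, 0.12 and 0.20, and the highest was *Pam* with 0.33. In the 17 V1 L5 and 16 S1 L5 cells signs were mixed, with *Cpe* at 0.27 and −0.24. Whether these values differ between groups was not tested.

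**Figure D3:**
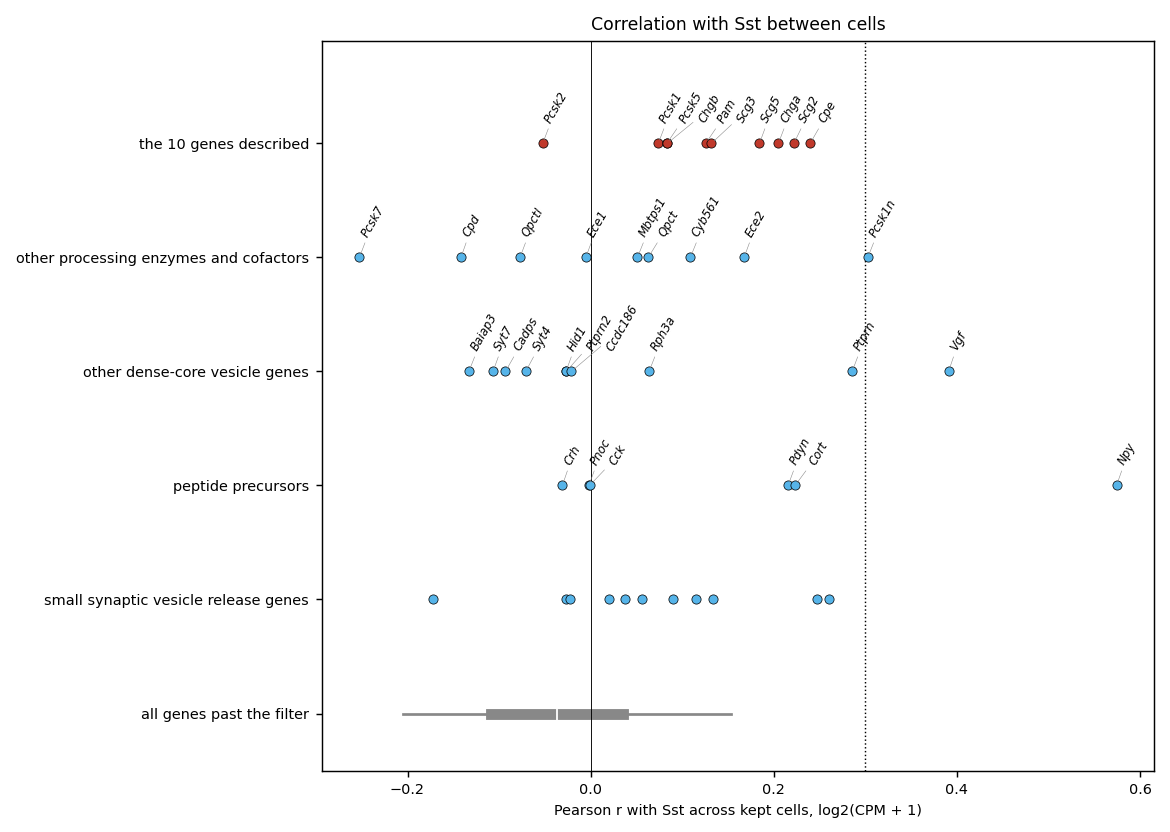
Pearson r with *Sst* (x axis) of log2(CPM + 1) across all kept cells for the 10 genes (red) and for 4 further lists (blue), genes past the filter only, with gene names except in the list of small synaptic vesicle genes. The grey bar gives the middle 50% and the line the 5% to 95% range of all genes past the filter, and the dotted line marks 0.3; the 10 genes lie between −0.05 and 0.24, while *Npy*, *Vgf* and *Pcsk1n* lie at or above 0.3.

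Other genes of the dense-core vesicle did reach 0.3 with *Sst*. *Vgf* had an r of 0.39, *Pcsk1n* of 0.30 and *Npy*, the neuropeptide Y precursor gene, of 0.57, which put *Npy* at rank 2 of 9992 genes. Their r centred within group and recording day were 0.40, 0.29 and 0.62. Within the 4 groups r ran from 0.11 (S1 L4) to 0.53 (S1 L5) for *Vgf* and from 0.08 (V1 L5) to 0.57 (S1 L4) for *Pcsk1n*. For *Npy* it ran from 0.37 (S1 L4) to 0.73 (S1 L5). *Ptprn*, which encodes a membrane protein of the dense-core vesicle, stood just under the threshold at 0.29. Hence 1 of 9 other processing genes, 1 of 10 other dense-core vesicle genes and 1 of 6 precursors reached 0.3, and 0 of 11 small synaptic vesicle genes.

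Between themselves the 10 genes were barely correlated. Over their 45 pairs the median r was 0.06, the same as over pairs of all genes past the filter, 0.06. With depth taken out these medians were 0.040 and 0.00087, and by rank 0.095 and 0.053. Centred within group and recording day they were 0.074 and 0.072. Over 55 pairs of small synaptic vesicle genes the median was 0.30. The 10 genes were read in 27.5% (*Pcsk5*) to 99.1% of cells and the synaptic genes in 52.3% (*Stx1a*) to 100%. The part of this in the contrast was not tested. An r of at least 0.3 was reached by 2 pairs, beside 2.49% of all gene pairs. These were the granin pair *Scg2* and *Chgb* (0.34) and the pair *Scg5* and *Chga* (0.32). In L4 the first pair had 0.48 (V1) and 0.14 (S1) and in L5 0.39 (V1) and −0.10 (S1). Without the same V1 L4 cell, the first pair had 0.03 in V1 L4 and 0.24 over all cells. Without the 4 cells that lacked 2 or more of the 7 genes read in most cells, it had 0.10 and the second pair 0.20 over all cells, so both rest on few cells. The second had 0.09 (V1) and 0.61 (S1) in L4 and 0.56 (V1) and −0.04 (S1) in L5. Centred within group and recording day, the first pair kept an r of 0.33 and the second had 0.09. The most negative pair was *Pcsk5* and *Scg5* (−0.18). *Scg5* and *Pcsk2*, chaperone and convertase, had an r of −0.01. The levels of *Chgb*, *Scg2* and *Pcsk2* themselves followed depth, with r of 0.34, 0.33 and 0.27 with the log10 total count.

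**Figure D4:**
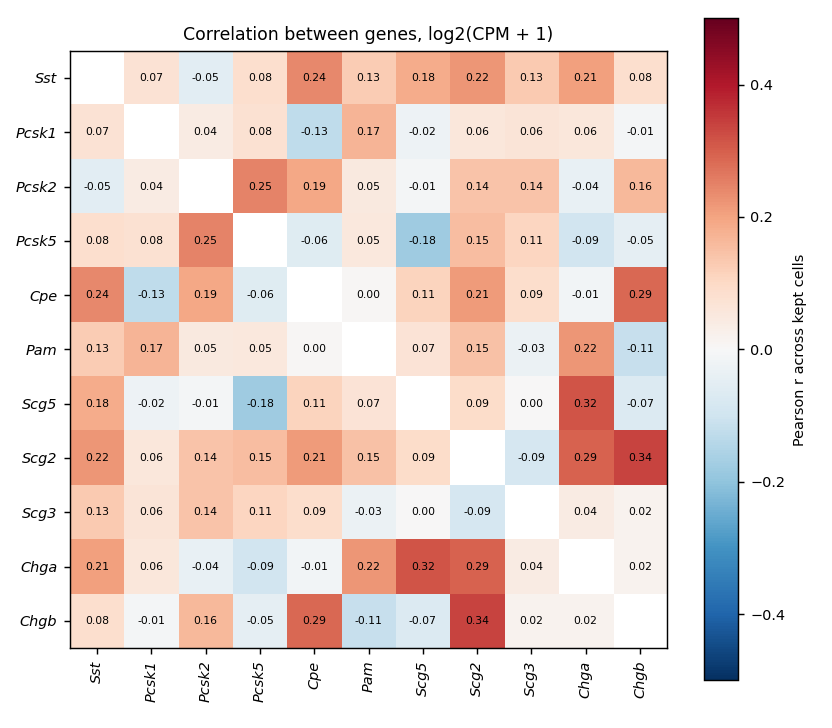
Pearson r of log2(CPM + 1) across all kept cells between the 10 genes and *Sst*, coloured from −0.5 (blue) to 0.5 (red), with the value in each field. Most fields are pale, and 2 pairs of the 10 genes reach 0.3, *Scg2* with *Chgb* (0.34) and *Scg5* with *Chga* (0.32), neither of them without the 4 cells that lacked 2 or more genes (0.10 and 0.20).

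The promoters of *Scg2*, *Chgb*, *Pcsk1* and *Sst* hold the same motif, and their sequences are shown for that reason. RefSeq promoter sequences on GRCm38.p6 were found for *Sst* and 9 of the 10 genes, leaving out *Cpe*. They run from 250 bases before to 50 bases after the start set for the promoter. This start is not the GENCODE gene start used for the gene coordinates above. By the GENCODE spans, the windows printed below lie inside the gene for *Chgb* and *Sst*, and partly inside it for *Scg2* and *Pcsk1*. The cAMP response element TGACGTCA, which reads alike on both strands, was present in 1.79% of 32851 promoters and in 3 of the 9 genes, *Scg2*, *Chgb* and *Pcsk1*, as well as in *Sst*. Counted from the start, its first base lay at −68 in *Scg2*, −72 in *Chgb*, −78 in *Pcsk1* and −48 in *Sst*. Below, the 100 bases just before the start are given 5′ to 3′ on the strand of the gene, with this element in capitals, for *Scg2* (chr1:79440027-79440126, minus strand), *Chgb* (chr2:132781542-132781641, plus strand), *Pcsk1* (chr13:75089757-75089856, plus strand) and *Sst* (chr16:23890845-23890944, minus strand).
Scg2: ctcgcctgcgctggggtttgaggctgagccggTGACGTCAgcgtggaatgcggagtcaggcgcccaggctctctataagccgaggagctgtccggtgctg
Chgb: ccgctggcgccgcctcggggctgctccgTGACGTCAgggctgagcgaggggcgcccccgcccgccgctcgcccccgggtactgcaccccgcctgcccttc
Pcsk1: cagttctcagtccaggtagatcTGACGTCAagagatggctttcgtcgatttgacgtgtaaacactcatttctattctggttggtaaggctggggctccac
Sst: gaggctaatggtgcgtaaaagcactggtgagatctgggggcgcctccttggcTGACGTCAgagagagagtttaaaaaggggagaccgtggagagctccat

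The shorter motif TGACG, searched on both strands and contained in the full element, was found in 7 of the 9 genes and in 20.8% of all promoters, so that *Chga*, *Scg3*, *Scg5* and *Pcsk2* had it without the full element. The GC box GGGCGG was found on either strand in 7 of the 9 genes and in 35.7% of all promoters, TATAAA in *Chga* alone and in 13.6%, and CACGTG in 0 of the 9 and in 7.15%. A match describes the letters of this window only. Among the genes with the full element, r across cells was 0.34 for *Scg2* and *Chgb*, 0.06 for *Pcsk1* and *Scg2*, and −0.01 for *Pcsk1* and *Chgb*. With *Sst* it was 0.22 for *Scg2*, 0.08 for *Chgb* and 0.07 for *Pcsk1*. The part of the element in these values was not tested.

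The genes most like the 10 in their pattern over cells were named as the highest r of any other gene past the filter. For *Pcsk5* this was *Calb2*, the calretinin gene, with an r of 0.52 over all kept cells. Reads of both genes were found in 19 cells, of *Pcsk5* alone in 11, of *Calb2* alone in 9 and of neither in 70. Within V1 L4 the counts were 15, 6, 5 and 16 cells and r was 0.43. Within S1 L4 they were 3, 3, 2 and 26 cells and r was 0.54. Of the other genes that name the SOM types of L4, *Hpse* had an r with *Pcsk5* of −0.50 in V1 L4 and −0.21 in S1 L4, *Pdlim5* had 0.35 and −0.09, and *Cbln4* 0.14 and 0.21. These are correlations between sparse genes, since *Pcsk5* was at 0 in 79 of the kept cells.

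For *Scg2* the most like gene was *Crhbp*, which encodes the binding protein of corticotropin-releasing hormone, with an r of 0.54 and, by rank, of 0.60. Centred within group and recording day it was 0.42, and within the 4 groups it ran from 0.22 in V1 L4 to 0.62 in V1 L5. *Crhbp* was read in 94 cells, in which *Scg2* had a median of 846 CPM. In the 15 cells without *Crhbp* reads the median of *Scg2* was 254 CPM, and 13 of these 15 cells were in L5. Among L5 cells the medians were 720 CPM with and 218 CPM without *Crhbp* reads, and in L4 all but 2 of 76 cells had *Crhbp* reads. *Scg2* also had an r of 0.47 with *Npy*, 0.32 with *Pdyn* and −0.41 with *Crh*, the corticotropin-releasing hormone gene. The r with *Crh* was 0.05 in V1 and 0.31 in S1 in L4, and −0.32 and −0.39 in L5. *Chga* had an r of 0.30 with *Npy*. No other of the 10 genes reached 0.3 in size with any of the 6 precursor genes past the filter.

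**Figure D5:**
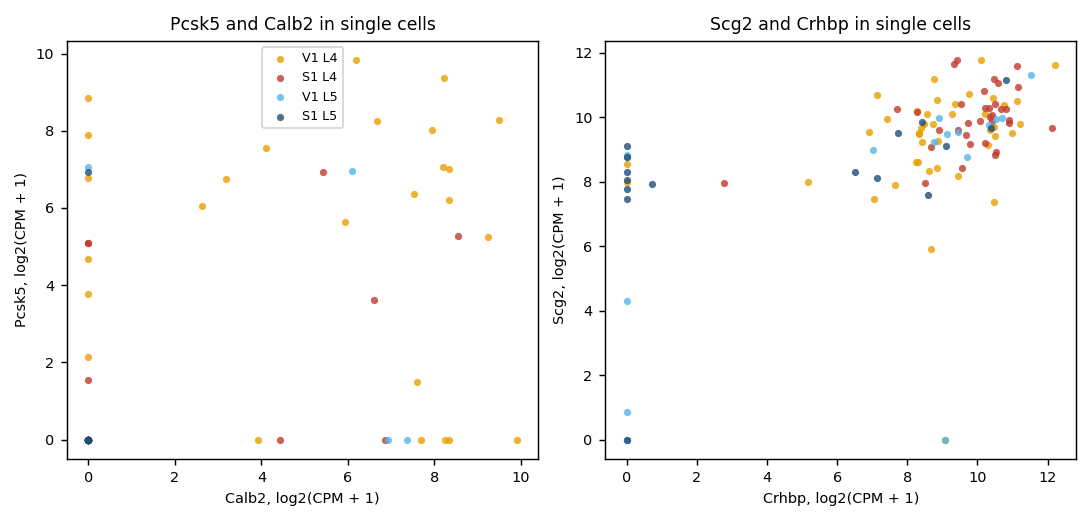
Level in log2(CPM + 1) of *Pcsk5* against *Calb2* (left) and of *Scg2* against *Crhbp* (right), 1 point per cell, coloured by area and layer. On the left, 70 of the kept cells lie on the same point at 0 for both genes and V1 L4 cells make up 15 of the 19 cells with both, and on the right the 15 cells without *Crhbp* reads lie at or below 549 CPM of *Scg2*.

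For the abundant genes, the most alike gene often rested on few cells at 0. *Cpe* had an r of 0.76 with *Tspan7*, a neuronal tetraspanin gene, but 0.41 by rank and 0.48 without the 1 cell at 0. *Chgb* had 0.52 with *Maged1* and 0.23 by rank, *Scg3* 0.48 with *Ap2s1* and 0.20 by rank, and *Chga* 0.48 with *Dnajc7* and 0.17 by rank. The most alike gene of *Scg5* was *Ptprn* (0.48, and 0.28 by rank), of *Pam* it was *Pgrmc1* (0.45), of *Pcsk2* *Ankmy2* (0.43) and of *Pcsk1* *Tnip1* (0.31). For *Sst* it was *Stmn3* (0.58, and 0.50 by rank). Among the genes most alike the mean z-score of the 10 genes were *Tspan7* (0.56), *Spock3* (0.54), *Ndn* (0.53) and *App* (0.51), and the r of this score was 0.44 with the log10 total count and 0.32 with *Sst*.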

How the data were processed

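Patch-seq with a Smart-seq2-based protocol gave 1 library per cell, without molecular identifiers. Per the labels, the authors used bcl2fastq 2.20, STAR 2.4.2a and the mm10 build, and they deposited raw read counts per gene and RPKM values made with rpkmforgenes on RefSeq models. The 24490 gene entries were summed by symbol. CPM used the total count of the cell and a pseudocount of 1, and the deposited RPKM values served for levels per length. The date in a label was taken as the recording day. There were 9 days. The paper reports fewer mice for Patch-seq than this, so the days cannot all be separate animals. Shares have Clopper-Pearson and pooled counts Poisson intervals at 95%, and a count of 0 allows 3 counts. Clopper-Pearson intervals cover the drawing of cells as if these were independent. Poisson intervals and floors cover counting error only, as reads are not independent molecules. None of them cover the spread between animals or days.

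The 10 genes, the further lists and the call rule were chosen with earlier results of these data known. Named were the 10 genes and *Sst*, genes of 4 further lists that met the call rule or an r of 0.3, 4 genes of L4 type names, the most alike gene of each, and the 5 most alike their mean z-score. Some results that this rule names are not reported here. Leaving out single cells, *Crhbp* against *Scg2* and the motifs were looked at after values were seen, as were genes named for falling short of a rule. In simulated counts for S1 minus V1 in L4, over 9201 genes, the rule called 42.0% of 100 genes changed by 2 on the log2 scale, 77.0% of 100 changed by 4, and 1.00% of unchanged genes. The simulated counts held no effect of recording day. The comparisons between layers and in L5, which have fewer days, were not simulated, so these shares need not hold there. Electrophysiology and reference types were not used here. Gene coordinates are from GENCODE M21, and promoter windows follow the starts of the RefSeq promoter sequences. Scaling by TMM, an alternative, used edgeR 4.0.16 in R 4.3.3, and everything else SciPy 1.17.1, pandas 2.3.3, NumPy 2.4.6 and matplotlib 3.10.9 under Python 3.11.15.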

Additional observations from a re-analysis of the deposited data

Results flagged for a closer look

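Data outside the comparisons held a signal. In the 4 S1 L4 cells left out because they had no *Sst* read, 8 of the 10 genes were read above the limit that a count of 0 allows. *Scg2* stood at 1525 CPM pooled over these cells, beside 1129 CPM in the kept S1 L4 cells, *Cpe* at 1156 beside 1001 CPM, *Chgb* at 831 beside 880 CPM and *Chga* at 150.7 beside 435 CPM. *Pcsk1* and *Pcsk5* had 0 reads there. With 4 cells and no known animals, the difference from the kept cells was not tested.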

How the results depend on the processing

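With no animal named, and recording days that cannot all be separate animals, neither areas nor layers were tested. No paired analysis was possible because the labels give no replicate number or animal shared between groups, and recording days entered only through the call rule. A single day often held 2 or 3 cells of a group, *Pcsk1*, *Pcsk2* and *Pcsk5* were at 0 in many cells, and 3 cells had under 250000 reads. The number of genes called in L4 between areas was 2 with at least 4000 detected genes per cell (*Pcsk5* and *Scg3*), 0 between medians of cells and 1 to 2 without single recording days, the 2 without day 8 (*Pcsk5* and *Scg3*). In L5 it was 1 with no gene filter (*Pcsk1*). Between layers in V1 it was 1 with at least 4000 genes (*Pcsk5*), 0 thinned to 250000 reads, 1 between medians (*Pcsk2*), and 1 to 2 without single days. Without days 3 or 5 in V1 only 1 day was left and no call could be made. In S1 it was 2 at a pseudocount of 0.1 (*Scg2* and *Scg3*), 3 with L4 cells of both series (*Pcsk1*, *Scg2* and *Scg3*), and 1 to 2 without single days. The number of genes with an r of 0.3 with *Sst* was 1 with at least 4000 genes (*Scg2*), 1 by Spearman (*Scg5*) and 1 when centred within group and day (*Cpe*). The median r between the 10 genes was 0.041 thinned, 0.082 with TMM or a pseudocount of 10, 0.095 by Spearman, 0.074 centred, 0.040 with depth taken out and 0.038 to 0.078 without single days. No called difference turned its sign. The cause of these changes was not tested. The count between layers in V1 was 3 at a pseudocount of 0.1 (with *Pcsk2*). After the data were seen, 4 cells lacking 2 or more of the 7 abundant genes were left out, which gave 2 calls between layers in S1 (*Scg2* and *Scg3*) and a median r of 0.066.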
